A study of Saccharomyces cerevisiae with 12 samples.

Results

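The genes described here are those whose mRNA fell after glucose both in a yeast strain that can take up hexoses and in a strain from which the hexose transporter genes were deleted. They were chosen by their measured values: on replicates 1 and 3, the mean at 20 min had to lie at least 0.8 log2 units below the mean at 0 min in each strain, with each array centred on its median, and the mean log2 intensity at 0 min, as deposited and not centred, had to be at least 7 in each strain. Of 5449 genes measured, 5020 passed the level floor and 95 met the whole rule, a share of 1.89% of the genes past the floor. Without the floor 105 genes met the limit on both falls, and 10 of them were left out by the floor. Because the time differences selected the genes, they are given below as a description with no test, and "fell" means a difference of -0.8 or lower.

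The study grew Saccharomyces cerevisiae of the CEN.PK background in ethanol-limited chemostats at a dilution rate of 0.1 per h and added a pulse of glucose. KOY.PK2-1C83P was the reference strain, and KOY.VW101P was the null strain, in which every known hexose transporter had been removed. Each strain was sampled at steady state, written here as 0 min, and 20 min after the pulse, with 3 biological replicates per strain and time and 12 arrays in all. All 4 groups share the ethanol-limited culture, the labels name no agent other than the glucose, and the deletions were studied in 1 null strain.

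In yeast, glucose enters the cell through the hexose transporters and is sensed at the surface as well as inside the cell, by sensor proteins and receptors, through protein kinase A and by glucose phosphorylation. A shift from ethanol to glucose is known for shutting off genes for respiration, gluconeogenesis and storage carbohydrates and for raising genes that make ribosomes. Passage through Start, the point in G1 at which a cell commits to division, is carried by G1 cyclins and by the transcription factors SBF and MBF, and it is known to respond to the carbon source.

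All levels below are log2 intensities with the 12 arrays brought to the same median, which was then set at 10.63, and all differences are in log2 units. Deposited array medians ran from 10.34 to 10.90. The hexose transporter genes HXT1, HXT2, HXT3, HXT4, HXT5 and HXT7 read 5.36 to 14.9 on the reference arrays and 2.05 to 2.25 on the null arrays, next to the lowest values of the arrays of 2.01 to 2.11, so the strain labels matched the deleted genes. The time labels of replicate 2 went the other way. Over all genes measured, the reference array labelled 0 min, replicate 2, correlated at 0.993 with the 20 min arrays of replicates 1 and 3 and at 0.718 with those of its own label, and the array labelled 20 min correlated at 0.994 with the 0 min arrays and at 0.704 with its own. For the null strain the corresponding values were 0.984 and 0.926 for the array labelled 0 min and 0.993 and 0.938 for the array labelled 20 min. These correlations are across genes, which are not independent replicates. No array was moved to another group, and the values of replicate 2 are given below under the labels they carry.

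Falls of the same gene in both strains were few beside the falls in either. In the reference strain 1647 of 5020 genes fell, or 32.8%, and in the null strain 789 fell, or 15.7%. The 95 genes were 5.77% of those that fell in the reference strain and 12% of those that fell in the null strain. Among the other null falls, 507 genes rose by 0.8 or more in the reference strain and 187 lay between the limits there. Of the other genes that fell in the reference strain, 1326 lay between the limits in the null strain and 226 rose.

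**Figure D1:**
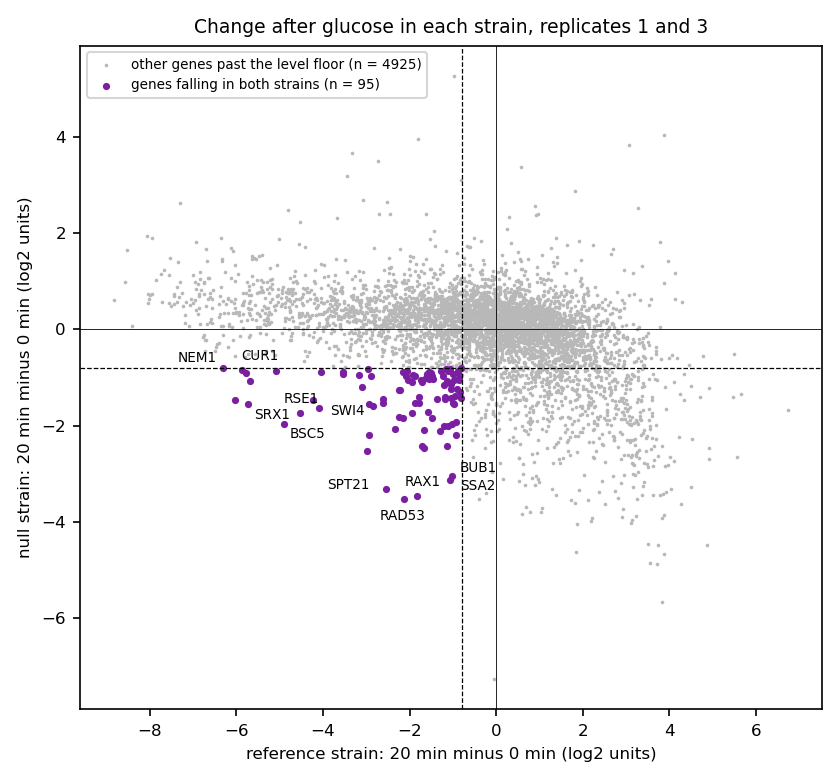
Difference between 20 and 0 min, as the mean of replicates 1 and 3, in the reference strain (horizontal axis, log2 units) and in the null strain (vertical axis, log2 units), with 1 point per gene past the level floor. The 95 genes chosen are the purple points at the lower left of the dashed lines at -0.8, and the largest cloud of null falls lies to their right, where the reference strain rose.

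The 95 genes had a median difference of -1.67 in the reference strain, which is a level 3.17-fold lower, and of -1.24 in the null strain, which is 2.37-fold lower. The medians of all 5020 genes past the floor were 0.04 and 0.08. In the reference strain the falls ran from -6.30 for NEM1 to -0.80 for ISC1, and 80 of them were of 1 or more and 35 of 2 or more. In the null strain they ran from -3.54 for RAD53 to -0.80 for NEM1, with 65 of 1 or more and 16 of 2 or more. Both falls were of 1 or more in 54 genes, of 1.5 or more in 22 and of 2 or more in 5, namely SPT21, YPL077C, DOT1, RAD53 and PEP5. The reference fall was the larger in 60 genes, by 1 or more in 26 and by 2 or more in 16, and the null fall was the larger in 35, by 1 or more in 7. In 36 genes the falls of the strains lay within 0.5 of each other.

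Both 20 min arrays lay below both 0 min arrays of replicates 1 and 3 in 94 genes in each strain, and the exceptions were SPC1 in the reference strain and WSC4 in the null strain. The rule fixes most of this separation. In replicate 2, which the rule did not use, 94 of the 95 genes read higher on the reference array labelled 20 min than on the one labelled 0 min, against 49.6% of the 5020 genes past the floor, and WSC4 was the exception. In the null strain 88 genes did so, against 47.7% of all genes, and the exceptions were UBR2, RAD55, GMC1, STB1, MMS1, TDA11 and YEL076C-A. The median change in replicate 2 as labelled was 1.5 in the reference strain and 1.47 in the null strain. The array labelled 0 min lay nearer the 20 min mean of replicates 1 and 3 in 91 genes of the reference strain and in 79 of the null strain, and the array labelled 20 min lay nearer their 0 min mean in 95 and 93. These nearness counts have no share of all genes beside them, so they are not shown to be particular to the 95 genes.

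**Figure D2:**
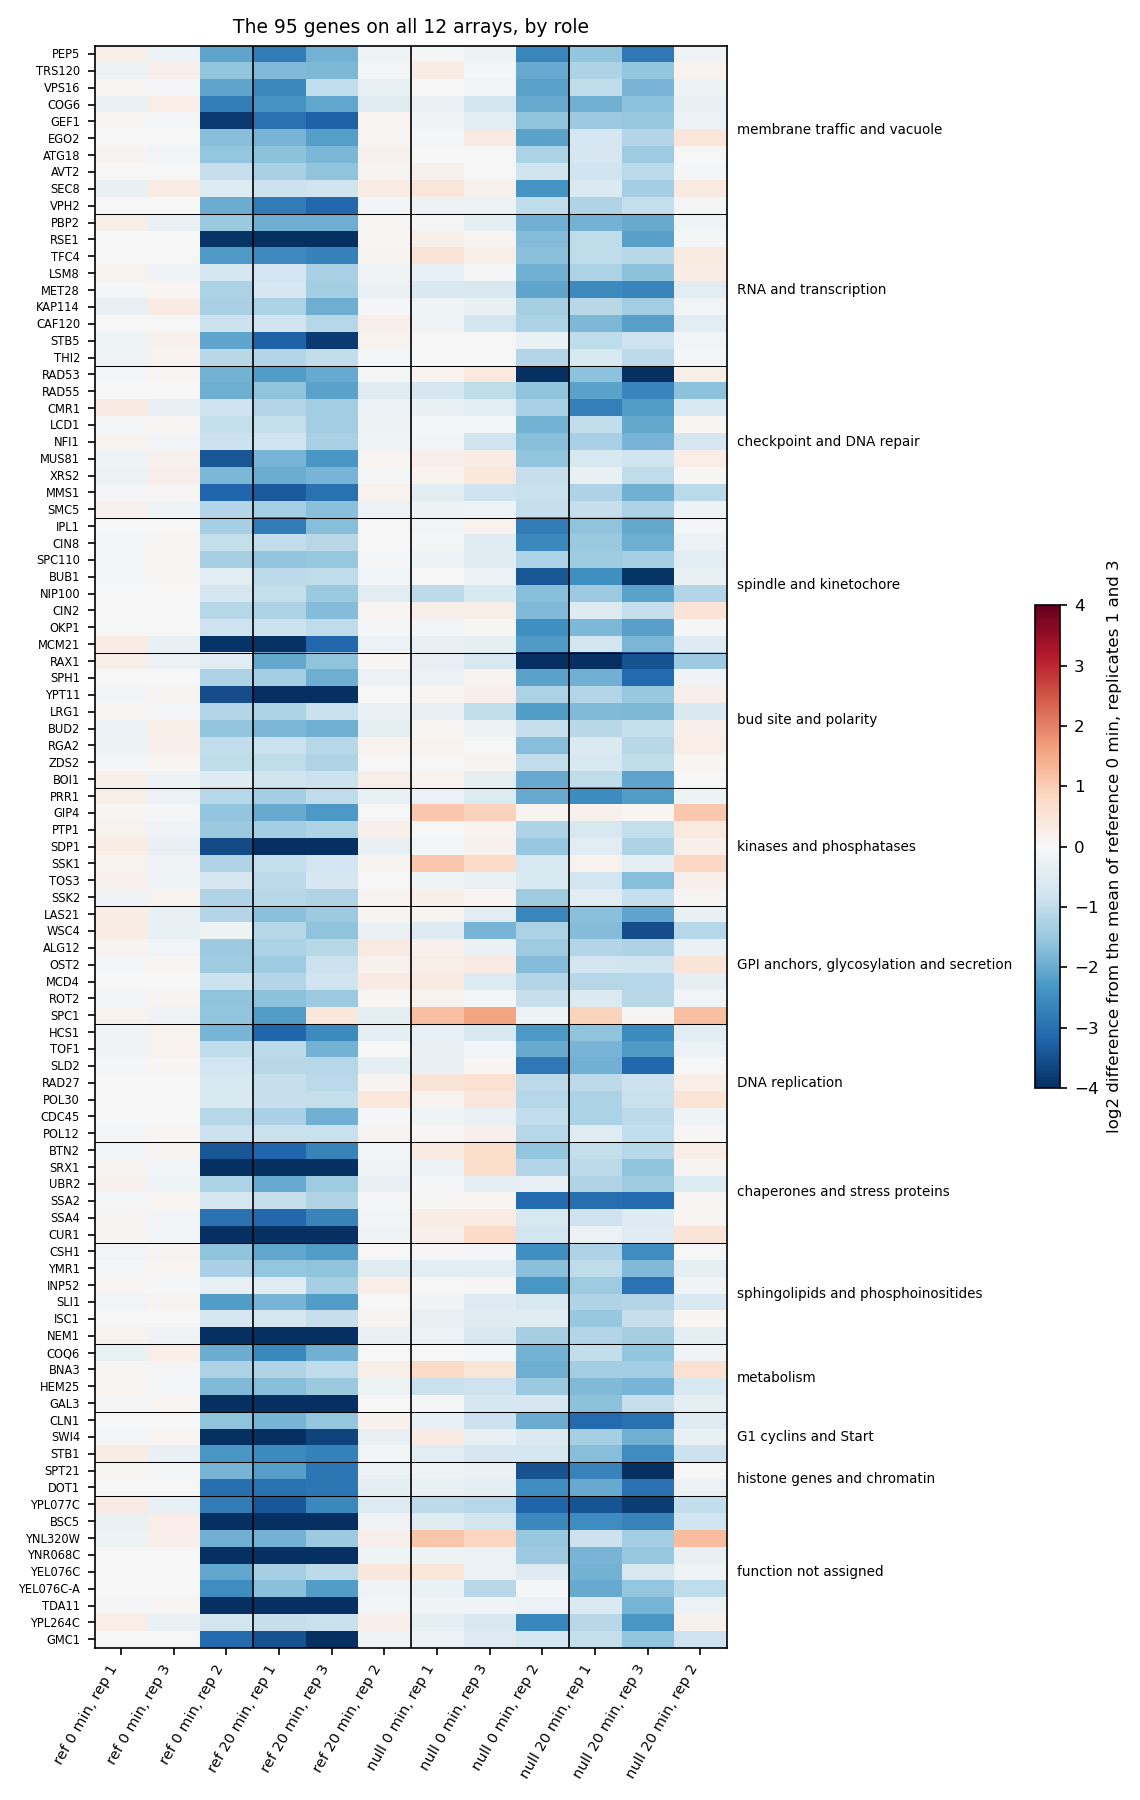
Difference of each array (columns, with strain, labelled time and replicate) from the mean of the reference 0 min arrays of replicates 1 and 3, in log2 units by colour, for the 95 genes (rows) grouped by role. Differences beyond 4 log2 units are drawn at the end of the colour scale, and the replicate 2 columns labelled 0 min are blue and those labelled 20 min pale in both strains.

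How the arrays were scaled decided which genes belong to the set. Quantile normalization, which gives every array the same distribution of values, left 44 genes that met the rule, and 32 of them were among the 95. Under it all 95 genes still lay lower at 20 min in the null strain, 53 of them by 0.8 or more. In the reference strain 74 lay lower, 47 of them by 0.8 or more, and 21 did not: SSK1, HEM25, RAD55, THI2, TOS3, BUB1, SPC1, LSM8, SLD2, NFI1, RAX1, INP52, CIN2, YPL264C, IPL1, NIP100, VPS16, WSC4, YEL076C, AVT2 and ISC1. The shift from one scaling to the other had a median of 1.12 log2 units over the 95 genes in the reference strain and of 0.41 in the null strain, while the median change of all genes moved from 0.11 to 0.13 in the reference strain and from 0.12 to 0.04 in the null strain. As deposited, with no scaling, all genes had a median change of -0.38 in the reference strain and of -0.13 in the null strain, and 195 genes met the rule, all 95 among them. The 95 genes were of less than typical intensity, with a median of 9.88 on the deposited scale in the reference strain at 0 min against 11.01 for the genes past the floor. For 22 of them a 20 min array read below 5 as deposited, where the size of a fall is less certain. These were SPT21, YPL077C, RAD53, BSC5, RAX1, IPL1, SWI4, SRX1, STB1, RAD55 and YNR068C. Also among the 22 were YPT11, WSC4, TDA11, BUB1, MCM21, GAL3, SPC1, GMC1, SDP1, CUR1 and NEM1. The genes that met the rule under all 3 scalings are pointed out in each group below.

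The falls were described by the roles of the genes, which were assigned from general knowledge after the values had been seen. No role was given to 9 of the 95. Genes outside the 95 were given no role, so the counts have no share of all genes beside them. Membrane traffic and the vacuole had 10 genes, checkpoint and DNA repair 9, RNA and transcription 9, spindle and kinetochore 8, bud site and polarity 8, DNA replication 7, GPI anchors, glycosylation and secretion 7, kinases and phosphatases 7, chaperones and stress proteins 6, sphingolipids and phosphoinositides 6, metabolism 4, G1 cyclins and Start 3, and histone genes and chromatin 2. NEM1, a gene of phosphatidate metabolism, is counted with sphingolipids and phosphoinositides. The group named histone genes and chromatin held SPT21 and DOT1, neither of which encodes a histone. The null fall had the larger median in DNA replication (-1.52 against -1.13) and, by little, in histone genes and chromatin (-2.76 against -2.74), and the reference fall in the other groups.

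**Figure D3:**
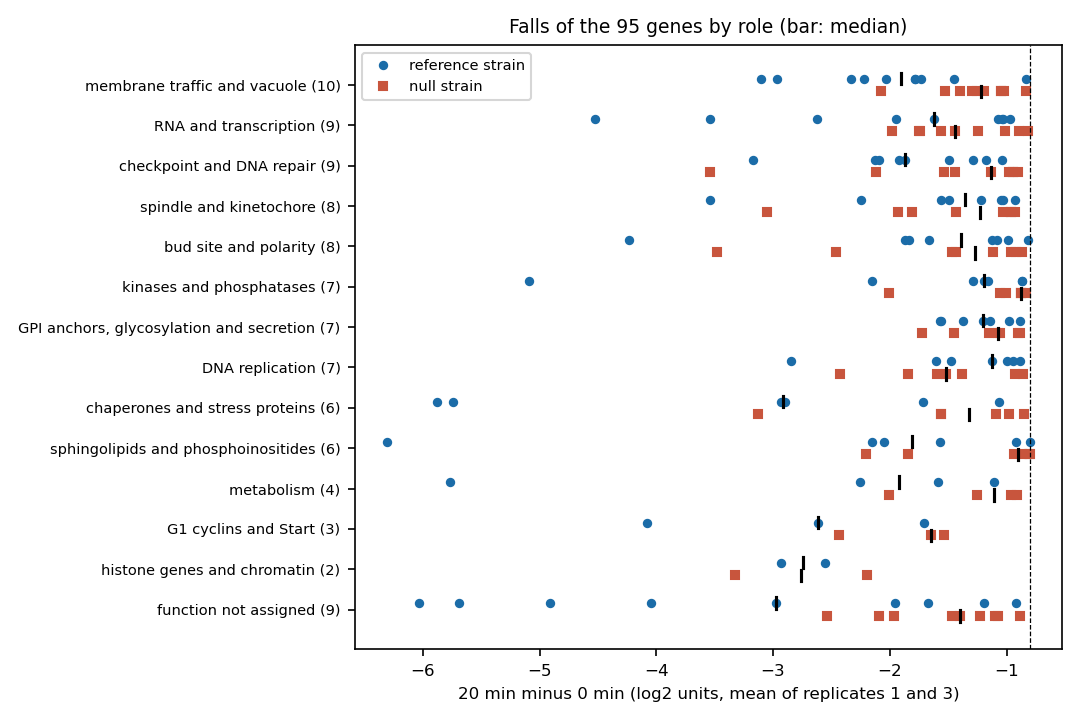
Differences between 20 and 0 min (horizontal axis, log2 units, mean of replicates 1 and 3) of the 95 genes by role, with the number of genes in parentheses. Circles are the reference strain, squares the null strain and black bars the medians, and the dashed line marks the limit of -0.8. The reference falls of chaperones and stress proteins have a median of -2.91 against -1.32 in the null strain, while those of DNA replication have -1.13 against -1.52.

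Genes of Start and of DNA replication made up 10 of the 95. CLN1 encodes a G1 cyclin, SWI4 the DNA-binding subunit of SBF, and STB1 a protein that binds the SBF and MBF regulators. CLN1 read 10.36, 8.74 and 10.33 in replicates 1, 2 and 3 of the reference strain labelled 0 min and 8.49, 10.51 and 8.79 labelled 20 min. The null arrays read 10.01, 8.37 and 9.48 labelled 0 min and 7.24, 9.82 and 7.37 labelled 20 min. In replicates 1 and 3 it thus lay lower at 20 min in each pair of arrays, by -1.71 on average in the reference strain and -2.43 in the null strain, and replicate 2 was the reverse in both strains. SWI4 read 8.35, 4.17 and 8.53 against 3.99, 8.15 and 4.73 in the reference strain, in the same order. The null arrays of SWI4 read 8.77, 7.87 and 8.13 against 7.11, 8.15 and 6.51. Its fall was thus -4.08 in the reference strain, where the 20 min arrays read below 5, and -1.64 in the null strain. STB1 differed by -2.62 and -1.54, and under quantile normalization by -0.03 and -0.63. CLN1 and SWI4 met the rule under all 3 scalings.

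Other genes of Start were not among the 95. CLN2, the paralog of CLN1, differed by -0.32 in the reference strain and 0.23 in the null strain, and CLN3, the upstream G1 cyclin, by 1.73 and 0.70. MBP1 and SWI6, which encode the DNA-binding subunit of MBF and the subunit common to SBF and MBF, differed by -0.23 and -0.25 in the reference strain and -0.53 and -0.21 in the null strain. PCL1, another G1 cyclin, differed by -0.04 in the reference strain and by -7.28 in the null strain. These partner genes were named after their values were seen.

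The replication genes of the set encode the sliding clamp (POL30), the flap nuclease that processes Okazaki fragments (RAD27), a subunit of DNA polymerase alpha (POL12), the helicase cofactor CDC45, the origin-firing factor SLD2, the helicase HCS1 and the fork protection factor TOF1. POL30 read 12.20, 11.58 and 12.19 in the reference strain labelled 0 min and 11.28, 12.63 and 11.24 labelled 20 min. POL30 in the null strain read 12.33, 11.06 and 12.65 labelled 0 min and 10.93, 12.74 and 11.29 labelled 20 min. This made falls of -0.94 and -1.38, with no overlap between the times in replicates 1 and 3. HCS1 had the largest reference fall of the 7, -2.85, with a null fall of -1.59, and SLD2 the largest null fall, -2.43, with a reference fall of -1.13. HCS1, TOF1 and POL30 met the rule under all 3 scalings, while SLD2 was 0.21 higher at 20 min in the reference strain under quantile normalization. POL1, the catalytic subunit that POL12 binds, differed by -1.03 and -0.57. The primase genes PRI1 and PRI2 differed by 0.65 and -1.38 in the reference strain and by -0.22 and 0.34 in the null strain. In a bulk culture, fewer cells of a stage and less RNA per cell cannot be told apart.

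A list of 42 measured genes of G1 and replication, 39 of them past the floor, held 7 of the 95: CLN1, SWI4, STB1, RAD27, POL30, CDC45 and POL12. In the reference strain 14 of the 39 fell and 8 rose by 0.8 or more, and in the null strain 19 fell and 1 rose. As shares of the list these were 35.9% and 20.5% in the reference strain, where 32.8% of all genes past the floor fell and 32.6% rose, and 48.7% and 2.56% in the null strain, against 15.7% and 7.69%. The members made up 17.9% of the list, against 1.89% of all genes, but the list was chosen with earlier results known. The medians were -0.26 and -0.58 beside 0.04 and 0.08 for all genes past the floor. Under quantile normalization the falls numbered 9 in the reference strain and 15 in the null strain, or 23.1% and 38.5% of the list against 29.7% and 13.2% of all genes, and 3 genes had both, or 7.69% against 0.876%. Of the minichromosome maintenance helicase genes of the list, MCM2 had 1.19 in the reference strain and -1.41 in the null strain. MCM6 had 1.26 and -1.79, MCM5 0.96 and -0.90, and MCM3 0.799 and -0.21. MCM4 and MCM7 lay between the limits in the reference strain, at -0.26 and -0.13, and fell in the null strain, at -1.81 and -1.43. CDC6, which loads that helicase, differed by 0.69 and -3.69.

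**Figure D4:**
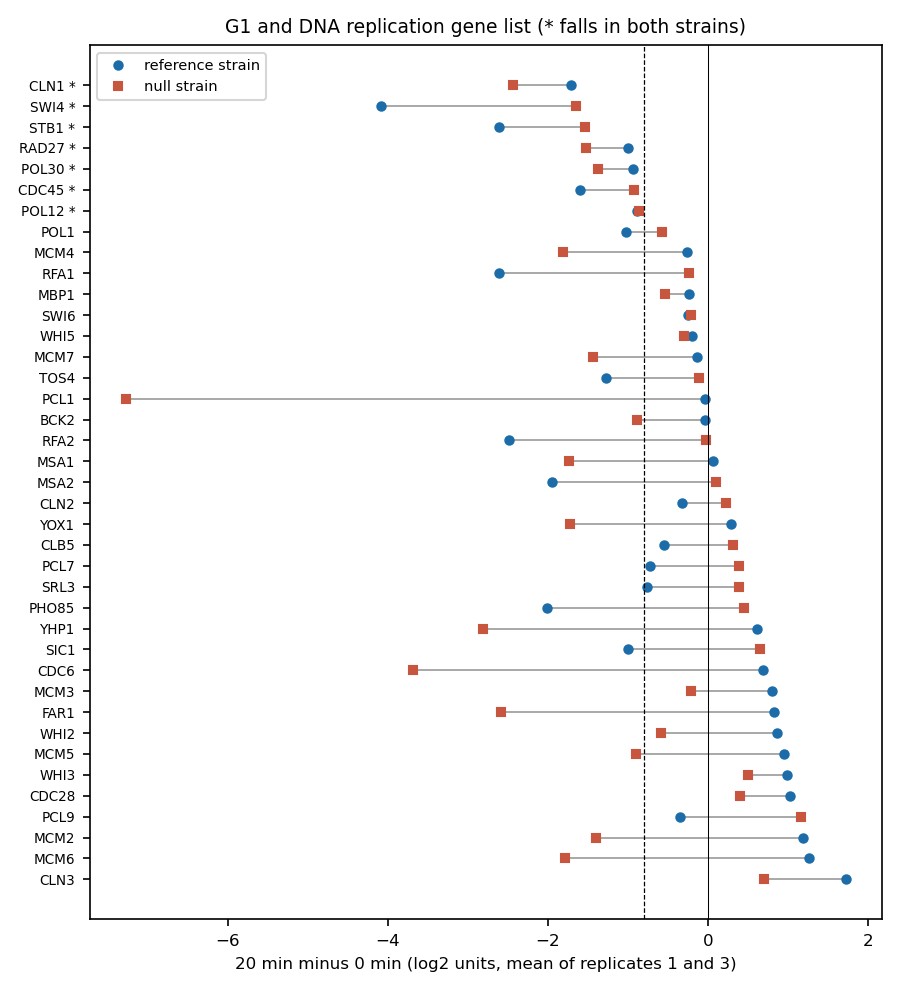
Differences between 20 and 0 min (horizontal axis, log2 units, mean of replicates 1 and 3) of the 39 genes of the G1 and replication list that passed the level floor, circles for the reference strain and squares for the null strain. Stars mark the 7 genes that fell in both strains, and PCL1 has the largest difference between the strains, at -0.04 and -7.28.

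The checkpoint and repair genes fell by a median of -1.87 in the reference strain and -1.13 in the null strain. RAD53, the effector kinase of the DNA damage and replication checkpoints, had the largest null fall of the 95. RAD53 read 9.20, 7.37 and 9.33 in the reference strain labelled 0 min and 7.03, 9.19 and 7.25 labelled 20 min. Null arrays gave 9.42, 4.75 and 9.66 labelled 0 min and 7.64, 9.51 and 4.35 labelled 20 min. The mean null fall of -3.54 thus stood for -1.78 in replicate 1 and -5.30 in replicate 3, and the reference fall of -2.13 for -2.17 and -2.08. Under quantile normalization the reference difference of RAD53 was -0.62, short of the limit, and the null difference -3.19. LCD1, the partner of the sensor kinase Mec1, fell by 1.18 and 1.44 on the log2 scale, while MEC1 itself differed by -0.19 and 0.12. RAD53, LCD1 and TOF1 were the members among 9 genes of this checkpoint, of which 6 fell in the reference strain and 4 in the null strain. Of all genes past the floor 32.8% and 15.7% fell and 1.89% were members. The 9 genes were picked after the values had been seen.

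Other repair genes of the set were RAD55 (-1.87 and -1.53), a mediator of recombination, CMR1 (-1.29 and -2.12), which takes part in the response to DNA damage, the SUMO ligase NFI1 (-1.04 and -1.13), the structure-specific nuclease MUS81 (-2.09 and -0.98), XRS2 of the Mre11 complex (-1.92 and -0.95), MMS1 of a ubiquitin ligase (-3.17 and -0.94) and SMC5 (-1.5 and -0.90). SMC5 alone of the 9 met the rule under all 3 scalings. The partners of XRS2 fell in the reference strain for MRE11 (-1.95) and lay just short of the limit for RAD50 (-0.75), and in the null strain they were at 0.32 and 0.11. RAD55 and NFI1 were higher at 20 min in the reference strain under quantile normalization, by 0.59 and 0.08.

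SPT21 and DOT1, both of which act on chromatin, stood among the largest joint falls. SPT21 is needed for transcription of certain histone genes, and DOT1 is the methyltransferase of a lysine in the core of histone H3. SPT21 read 8.59, 6.70 and 8.51 in the reference strain labelled 0 min and 6.34, 8.33 and 5.65 labelled 20 min. SPT21 in the null strain read 8.38, 5.08 and 8.28 labelled 0 min and 5.87, 8.56 and 4.15 labelled 20 min. The falls were -2.56 and -3.32, or 5.88-fold and 10.0-fold, and the reference fall shrank to -0.33 under quantile normalization. The null 20 min array of replicate 3 read below 5, so the size of the null fall is less certain. DOT1 read 10.04, 7.02 and 10.02 against 7.06, 9.66 and 7.13 in the reference strain. DOT1 in the null strain read 9.73, 7.54 and 9.68 against 8.0, 9.78 and 7.03. Its falls of -2.93 and -2.19 were -1.71 and -1.80 under quantile normalization, so DOT1 met the rule under all 3 scalings. Of 41 measured genes of histones and chromatin, 3 fell in the reference strain, or 7.32% against 32.8% of all genes, 6 fell in the null strain, or 14.6% against 15.7%, and 1 was a member, or 2.44% against 1.89%, so the list held members at about the share of all genes.

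**Figure D5:**
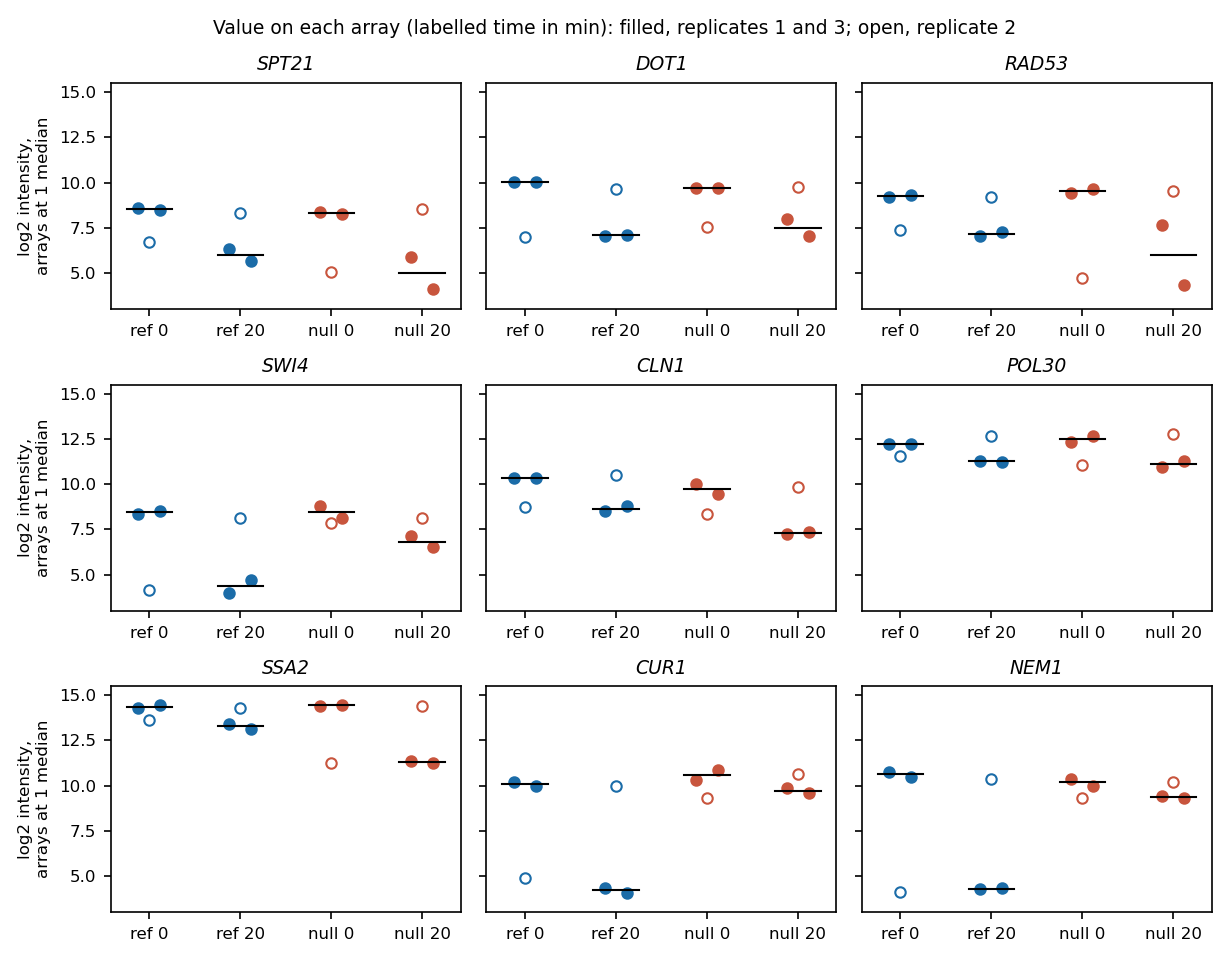
Log2 intensity (vertical axis, arrays at 1 median) of 9 genes on each of the 12 arrays, by strain and labelled time. Filled points are replicates 1 and 3, open points replicate 2 and black bars the means of replicates 1 and 3; the open points labelled 0 min lie near the filled points at 20 min for SPT21 and DOT1, and SSA2 in the null strain reads 14.4 on 3 arrays and 11.3 on the other 3.

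Genes of the spindle and the kinetochore numbered 8, and none of them met the rule under quantile normalization. IPL1 encodes the Aurora kinase that corrects chromosome attachment, BUB1 a kinase of the spindle checkpoint, OKP1 and MCM21 subunits of the COMA complex of the kinetochore, CIN8 a kinesin motor, SPC110 the receptor for gamma-tubulin at the spindle pole, NIP100 a dynactin subunit and CIN2 a factor of tubulin folding. BUB1 read 8.56, 8.17 and 8.68 against 7.55, 8.51 and 7.62 in the reference strain and 8.59, 5.19 and 8.40 against 6.18, 8.33 and 4.70 in the null strain. This made -1.03 and -3.05, but 0.63 and -2.44 under quantile normalization. IPL1 differed by -2.25 and -1.81, and by 0.28 and -0.98 under quantile normalization. CIN2 and NIP100 also turned to 0.39 and 0.84 in the reference strain there, while CIN8 (-1.05 and -1.43), SPC110 (-1.56 and -1.03), OKP1 (-0.93 and -1.93) and MCM21 (-3.54 and -0.93) kept a negative sign. The COMA subunit AME1 differed by 0.28 and -0.15. Of the other spindle checkpoint genes MAD1, MAD2, MAD3, BUB3 and MPS1, MAD1 rose in the reference strain by 1.03 and none fell in either strain.

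The 8 bud site and polarity genes included LRG1, BUD2 and RGA2, which encode GTPase-activating proteins of small GTPases. RAX1, which takes part in bipolar bud site selection, read 7.87, 7.19 and 7.38 against 5.58, 7.68 and 6.0 in the reference strain. RAX1 in the null strain read 7.29, 3.20 and 6.99 against 3.17, 6.17 and 4.15. Its falls were -1.83 and -3.48, and under quantile normalization 0.66 and -2.83. SPH1, a polarity protein, fell by 1.67 and 2.46 on the log2 scale. YPT11, a Rab GTPase of mitochondrial inheritance by the bud, had falls of -4.23 and -1.46 and, with RGA2 (-0.99 and -0.92), met the rule under all 3 scalings. LRG1 (-1.08 and -1.12), BUD2 (-1.87 and -0.97), the polarity regulator ZDS2 (-1.12 and -0.87) and the scaffold BOI1 (-0.82 and -1.43) did not meet it under quantile normalization.

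Genes of membrane traffic and of the vacuole were the most numerous by assigned role, and the reference fall was the larger in 9 of the 10. This count has no share of all genes beside it. A separate list of 51 genes of ER and Golgi traffic past the floor held 0 of the 95. A list of 51 genes of autophagy and the vacuole held 1, or 1.96% against 1.89% of all genes. PEP5 and VPS16 encode core subunits of the HOPS and CORVET tethers of the vacuole and endosome. PEP5 read 9.82, 7.47 and 9.36 against 6.80, 9.42 and 7.71 in the reference strain, and 9.50, 6.98 and 9.39 against 8.01, 9.44 and 6.73 in the null strain. Its falls were -2.34 and -2.08, and those of VPS16 were -1.78 and -1.40. PEP5 met the rule under all 3 scalings, while VPS16 was 0.19 higher at 20 min in the reference strain under quantile normalization. Of the 8 measured subunits of these tethers 5 fell in the reference strain and 3 in the null strain, with VAM6 at -2.33 and -0.20, VPS41 at -2.25 and 0.07, and VPS33 at -0.60 and -1.18. The shares of all genes past the floor were 32.8% and 15.7%, and the tethers were picked after the values had been seen.

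The other genes of traffic that met the rule under all 3 scalings were TRS120 of the TRAPP tether (-1.78 and -1.53), the chloride transporter gene GEF1 (-3.10 and -1.19) and EGO2 of the EGO complex, which recruits TORC1 regulators to the vacuole (-2.03 and -1.05). COG6 of the Golgi tether COG (-2.22 and -1.25), ATG18, a phosphoinositide-binding protein of autophagy (-1.73 and -1.05), SEC8 of the exocyst (-0.83 and -1.30) and VPH2, an assembly factor of the vacuolar ATPase (-2.97 and -0.83), met the limits with the arrays at 1 median but not under quantile normalization. AVT2, a gene of the vacuolar amino acid transporter family, differed by -1.45 and -1.02, and by 0.38 and -0.38 under quantile normalization. TRS120 read 10.87, 9.51 and 11.28 against 9.30, 11.01 and 9.29 in the reference strain, and 11.38, 9.05 and 11.04 against 9.85, 11.23 and 9.51 in the null strain.

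The secretory group held genes for enzymes that build or attach glycans. LAS21 and MCD4 are ethanolaminephosphate transferases of the GPI anchor and fell by 1.57 and 0.98 in the reference strain and 1.72 and 1.06 in the null strain on the log2 scale, while GPI13, the other enzyme of this kind, differed by -0.43 and -0.36. ALG12, a mannosyltransferase of the N-glycan precursor, read 10.93, 9.39 and 10.74 against 9.56, 11.18 and 9.72 in the reference strain, and 11, 9.42 and 10.58 against 9.67, 10.56 and 9.60 in the null strain. Its falls, -1.20 and -1.15, were nearly equal and changed little under quantile normalization, to -1.07 and -1.05. OST2 of the oligosaccharyltransferase had -1.14 and -1.07 and ROT2, a glucosidase subunit, -1.56 and -0.89. LAS21, ALG12 and OST2 met the rule under all 3 scalings. The times overlapped for the other members of the group, SPC1 and WSC4. SPC1, a signal peptidase subunit, differed in the reference strain by -2.37 in replicate 1 and 0.60 in replicate 3. WSC4, a membrane protein of the secretory pathway, had falls of -1.37 and -1.45, and its null arrays of replicates 1 and 3 read 8.02 and 6.65 at 0 min and 6.79 and 4.98 at 20 min. Under quantile normalization SPC1 was 1.32 and WSC4 0.46 higher at 20 min in the reference strain.

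The 6 genes grouped under sphingolipids and phosphoinositides were NEM1, CSH1, YMR1, SLI1, INP52 and ISC1, and none met the rule under quantile normalization. NEM1 was placed with them as a lipid gene, though it belongs to phosphatidate metabolism. NEM1, the phosphatase subunit that activates the phosphatidate phosphatase Pah1, had the largest reference fall of all 95. NEM1 read 10.77, 4.12 and 10.46 in the reference strain labelled 0 min and 4.27, 10.36 and 4.36 labelled 20 min. In the null strain it read 10.38, 9.29 and 9.98 against 9.45, 10.22 and 9.30. The reference fall of -6.30 was 79.0-fold, and the null fall of -0.80 was 1.74-fold, at the limit itself. Both reference 20 min arrays of replicates 1 and 3 read below 5, so the size of the reference fall is less certain. CSH1, an enzyme of inositolphosphoceramide mannosylation, had -2.15 and -1.84 on the centred scale and -0.24 and -1.24 under quantile normalization. YMR1, a phosphoinositide phosphatase, had -1.57 and -0.94, SLI1, an acetyltransferase that gives resistance to a sphingolipid inhibitor, -2.05 and -0.87, and ISC1, an inositol phosphosphingolipid phospholipase, -0.80 and -0.81. INP52, an inositol polyphosphate phosphatase, had -0.92 and -2.21, and was 0.36 higher at 20 min in the reference strain under quantile normalization.

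The 6 chaperone and stress genes had medians of -2.91 in the reference strain and -1.32 in the null strain. BTN2 and CUR1 encode related factors that sort misfolded proteins, and both are members. BTN2 read 12.86, 9.56 and 13.09 against 9.80, 12.88 and 10.29 in the reference strain, and 13.34, 11.41 and 13.67 against 12.01, 13.25 and 11.87 in the null strain. CUR1 read 10.20, 4.92 and 10.00 against 4.37, 9.97 and 4.07 in the reference strain, and 10.30, 9.34 and 10.86 against 9.86, 10.62 and 9.60 in the null strain. The falls were -2.93 and -1.56 for BTN2 and -5.88 and -0.85 for CUR1. Under quantile normalization those of BTN2 were -3.12 and -1.78 and those of CUR1 -4.57 and -0.72. SRX1, a sulfiredoxin that repairs oxidised peroxiredoxins, had -5.74 and -1.56, and UBR2, a ubiquitin ligase, had -1.72 and -1.09. BTN2, SRX1, SSA2 and SSA4 met the rule under all 3 scalings.

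SSA2 and SSA4, which encode cytosolic Hsp70 chaperones, were members, and their paralogs SSA1 and SSA3 were not. SSA2 read 14.27, 13.65 and 14.44 in the reference strain labelled 0 min and 13.42, 14.30 and 13.15 labelled 20 min. SSA2 in the null strain read 14.41, 11.25 and 14.44 labelled 0 min and 11.34, 14.40 and 11.25 labelled 20 min. Its fall was -1.07 in the reference strain and -3.13, or 8.77-fold, in the null strain, where the arrays lay tightly at 2 levels. SSA4 had -2.90 and -0.98, SSA1 -4.13 and -0.22 and SSA3 -1.94 and 0.04. Under quantile normalization SSA2 had -1.67 and -3.34 and SSA4 -3.19 and -1.22. SSA1 and SSA2 are near-identical in sequence, so that their probe sets may share target RNA, which makes their separate values uncertain. Of 56 measured heat shock and chaperone genes 25 fell and 21 rose in the reference strain and 13 fell and 1 rose in the null strain, with 4 in both, and the medians of the list were -0.17 and -0.19. The falls were 44.6% and 23.2% of the list, against 32.8% and 15.7% of all genes. The 4 genes in both were 7.14% of it, against 1.89%, in a list chosen with earlier results known.

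Among genes of RNA and transcription, RSE1, a subunit of the splicing factor SF3b, read 10.33, 6.39 and 10.27 labelled 0 min and 5.32, 10.38 and 6.23 labelled 20 min in the reference strain. RSE1 in the null strain read 10.53, 8.57 and 10.38 against 9.29, 10.26 and 8.13. Its falls were -4.52 and -1.75, and those of TFC4, a subunit of the RNA polymerase III factor TFIIIC, -2.63 and -1.44. MET28, an activator of sulfur amino acid genes, had -1.03 and -1.98, and KAP114, an importin, -1.62 and -1.02. These 4 met the rule under all 3 scalings. PBP2, an RNA-binding protein, had -1.95 and -1.75, STB5, a regulator of drug resistance and NADPH supply, -3.54 and -0.89, and CAF120 of the Ccr4-Not complex -0.97 and -1.56. LSM8, of the ring that binds the spliceosomal U6 RNA, and THI2, an activator of thiamine genes, had -1.04 and -1.24 and -1.08 and -0.81, and both turned in the reference strain under quantile normalization, to 0.54 and 0.69.

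The kinase and phosphatase group included SSK1 and SSK2 of the osmosensing HOG pathway, which are the response regulator and the kinase it activates. SSK1 had -0.87 and -1.05 and SSK2 -1.16 and -0.83, while the paralog SSK22 had -1.03 and -0.21 and the terminal kinase HOG1 1.36 and -0.63. Under quantile normalization SSK2 kept both falls, at -1.26 and -0.94, and SSK1 was 0.32 higher at 20 min in the reference strain. GIP4, a regulator of protein phosphatase Glc7, had -2.16 and -0.88 and also met the rule under all 3 scalings. SDP1, a phosphatase of stress-activated MAP kinase, had -5.09 and -0.87, the kinase PRR1 -1.20 and -2.01, the tyrosine phosphatase PTP1 -1.28 and -0.87, and TOS3, a kinase that activates Snf1, -0.86 and -1.0. TOS3 was 0.25 higher in the reference strain under quantile normalization.

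Metabolic enzymes were few. COQ6, a monooxygenase of ubiquinone synthesis, had -2.25 and -1.25, BNA3, an aminotransferase of the kynurenine pathway, -1.11 and -2.0, GAL3, the galactose sensor, -5.77 and -0.91, and HEM25, the mitochondrial glycine carrier of haem synthesis, -1.59 and -0.96. COQ6 and BNA3 met the rule under all 3 scalings, and HEM25 was 0.08 higher in the reference strain under quantile normalization. Other ubiquinone genes were not members, with COQ3 at -7.19 and 0.30, COQ4 at -4.81 and 0.75 and COQ2 at 0.67 and -1.11 in the reference and null strains. BNA3, COQ6 and THI2 were the members among 62 measured genes of vitamins and cofactors, of which 22 fell and 12 rose in the reference strain and 10 fell and 5 rose in the null strain, with medians of -0.25 and 0.26. The falls were 35.5% and 16.1% of that list, near the 32.8% and 15.7% of all genes. The 3 members were 4.84% of it, against 1.89%, in a list chosen with earlier results known.

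Of the 9 genes without an assigned role, YPL077C had the largest fall common to both strains after SPT21. YPL077C read 9.15, 6.04 and 8.5 against 5.44, 8.27 and 6.26 in the reference strain, and 7.78, 5.62 and 7.68 against 5.36, 7.83 and 5.04 in the null strain. Its falls were -2.98 and -2.53, and under quantile normalization -0.84 and -1.80. YNR068C (-6.04 and -1.47) and BSC5 (-4.91 and -1.96) are neighbours on the chromosome, as are YEL076C-A (-1.95 and -1.10) and YEL076C (-1.19 and -1.40), and these 2 pairs with ALG12 and SSK2 were the only 3 pairs of adjacent genes among the 95. YEL076C-A and YEL076C lie near a chromosome end in a family of near-identical copies, so their probe sets may report several copies. TDA11 (-5.69 and -1.07), GMC1 (-4.04 and -0.88), YNL320W (-1.67 and -2.10) and YPL264C (-0.92 and -1.23) completed the group. YPL077C, BSC5, YNR068C and YEL076C-A met the rule under all 3 scalings, whereas YEL076C and YPL264C were each 1.0 higher at 20 min in the reference strain under quantile normalization.

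At the limit, THI2 (-1.08 and -0.81), ISC1 (-0.80 and -0.81) and NEM1 (-6.30 and -0.80) were just inside by the lesser of their falls. TOS2 (-2.01 and -0.79), SAS3 (-1.5 and -0.79) and DAD2 (-1.48 and -0.79) were just outside. Both falls reached 0.8 in replicate 1 alone for 68 of the 95 genes, in replicate 3 alone for 77 and in each of them for 54. The median differences in replicates 1 and 3 were -1.60 and -1.67 in the reference strain and -1.22 and -1.46 in the null strain.

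Several lists of glucose-responsive genes held none of the 95, which at 1.89% of all genes says little for lists of this size. The list for gluconeogenesis and the glyoxylate cycle had 11 measured genes, all of which fell in the reference strain only. Of 54 proteasome and ubiquitin genes, 44 fell with the transporters present and 0 without them. These were 81.5% and 0% of the list, against 32.8% and 15.7% of all genes past the floor. Ribosome biogenesis genes fell in 89 of 145 cases in the null strain, or 61.4% against 15.7%. In the reference strain 143 of the 145 rose, or 98.6% against 32.6% of all genes past the floor.

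The level averaged over both times was also set between the strains. For each strain and replicate number the arrays labelled 0 and 20 min were averaged, which an exchange of times within a replicate leaves as it is, and the 3 null means were compared with the 3 reference means with limma and Benjamini-Hochberg adjustment over all 5449 genes. This average is built from the arrays that chose the genes, and a larger fall in a strain lowers its average, so the counts describe the 95 genes and are not independent of the rule. Of the 95 genes 31 were higher in the null strain and 26 lower at an adjusted threshold of 0.05, against 39% and 38.6% of all genes, and under quantile normalization the split was 21 higher and 30 lower. Of the 31 higher genes 28 had the larger reference fall, and of the 26 lower genes 22 had the larger null fall. At 0 min itself, in replicates 1 and 3, 75 of the 95 genes lay within 0.5 between the strains, against 88.5% of the genes past the floor, from -1.19 for WSC4 to 1.38 for SPC1 as null minus reference.

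The genes furthest above the reference strain in this average were CUR1, by 2.84 (SE 0.124), SRX1, by 2.40 (SE 0.174), NEM1, by 2.38 (SE 0.110), TDA11, by 2.37 (SE 0.189), and YNR068C, by 2.08 (SE 0.0867). At 0 min their null minus reference differences were only 0.48, 0.23, -0.44, -0.14 and -0.22 in the same order, so that 3 of the 5 were not higher in the null strain before glucose. Furthest below it were RAX1, at -1.79 (SE 0.263), BUB1, at -1.28 (SE 0.203), WSC4, at -1.14 (SE 0.403), SSA2, at -1.02 (SE 0.0839), and MET28, at -0.89 (SE 0.135). Their differences at 0 min were -0.49, -0.12, -1.19, 0.07 and -0.60. The averages of the genes named carry the falls that chose them, so the SEs do not test a strain difference apart from those falls. For WSC4 alone of these 10 genes was the difference at 0 min as large as that of the average, and its call was lost on the deposited values and without replicate 2. Fitted instead to the 12 arrays as 4 groups under their labels, limma called 0 of the 95 and 80 genes in all, and 6 of the 95 had an unadjusted p under 0.05.

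Outside their expression the 95 genes shared little that was measured. They lay on all 16 chromosomes. Their median coding length was 1683 bases, against 1275 for the genes past the floor, 1254 for the genes that fell in the reference strain and 1404 for those that fell in the null strain. A coding length above 1683 bases was found for 33.1% of the genes past the floor. No test was made of this difference.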

How the data were processed

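Total RNA was extracted with Qiagen RNeasy columns and DNase, and 5 ug went into biotinylated cRNA for Affymetrix Yeast Genome 2.0 arrays, per the labels' protocols. The values deposited by the authors are log2 intensities of probe sets; the software and normalization behind it are not given in the sources used here. Of 10928 probe sets, 5498 could be assigned to S. cerevisiae genes with a probe table of 2016 and the RefSeq gene table, and the probe set of highest mean was kept for each of 5449 genes. Each array was centred on its median over these genes, and the mean of the 12 medians was added back. The number of arrays limits the precision.

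Strain means over both labelled times, 3 against 3, were compared with limma 3.58.1 in R 4.3.3 (4 residual degrees of freedom, Benjamini-Hochberg adjustment over 5449 genes, threshold 0.05). Falls were computed in Python 3.11.15. Alternatives were the deposited values, quantile normalization, other limits on falls and levels, the mean of all probe sets of a gene, arrays left out and the replicate number as a block. On simulated data for the null against the reference strain with 5449 genes, limma called 82 of the 86 genes given a difference of 1 log2 unit, all 114 given a difference of 2, and 7 of the 5249 given none. The simulation changed only 200 genes and gave all genes the same spread, each independent of the others. In the data 77.6% of genes were called, so these rates need not hold there.

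The genes, the 44 gene lists and the 14 complexes were chosen with earlier results of these data known, the complexes and roles after the values had been seen. The genes named first were those with the 12 largest lesser falls, the 5 largest falls in each strain, up to 4 in each list with at least 3 of the 95, 3 on each side of the limit, the 5 largest strain differences each way and paralogs or partners in those lists; the others were named after their values were seen, to give each role in full. Same-numbered replicates of different groups deviated together by correlations of -0.04, 0.03 and 0.03. In the main limma comparison they were not paired between the strains. Within a strain, the arrays of both labelled times were matched by replicate number alone. This matching entered the averages over both times and the differences given for single replicates. Promoter sequences were not analysed here.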

Additional observations from a re-analysis of the deposited data

How the results depend on the processing

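The number of genes falling in both strains was 95 with the arrays at 1 median, 195 as deposited, 44 under quantile normalization, 54 with a limit of -1.0 in place of -0.8, and 5 with replicates 1, 2 and 3 averaged under their labels. The median fall of the 95 genes in the reference strain, -1.67, became -2.16 as deposited, -0.75 under quantile normalization and -0.66 with all 3 replicates under their labels. In the null strain the median of -1.24 became -1.49, -0.93 and -0.41 in the same order. Leaving out replicate 1 or 3 gave medians of -1.67 to -1.60 in the reference strain and -1.46 to -1.22 in the null strain. Leaving out single arrays or a replicate number gave 79 to 118 genes, the lowest without replicate 3 of the null strain at 20 min and the highest without replicate 1 of it; without replicate number 3 or 1 the genes shared with the 95 were 68 and 75.

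In the comparison of strains, the 31 higher and 26 lower genes became 0 and 0 when the 12 arrays were fitted as 4 groups under their labels. At an adjusted p under 0.01 in the main limma comparison, 27 were higher and 17 lower. With the replicate block 30 were higher and 26 lower. The split was 31 and 22 on the deposited values, 29 and 25 with a trend in the variance, 27 and 29 without replicate 1, 28 and 18 without replicate 2 and 30 and 22 without replicate 3. All 10 genes named for the largest strain differences lost their call under the labels of the 12 arrays, and WSC4 also at 0.01, as deposited and without replicate 2. The time labels of replicate 2 enter the fit of 4 groups. Fitted as 4 groups without replicate 2, the other 8 arrays gave 30 higher and 18 lower. The cause of these changes in the calls was not otherwise tested. No direction of a named strain difference turned under any alternative run.

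The main limits are the replicate 2 time labels, which leave 2 replicates for each fall, the scaling, since only 32 of the 95 genes met the rule under all 3 scalings, and intensities under 5 at 20 min in 22 genes. The labels call the replicates biological without saying more. The p-values set a strain difference against the scatter of the 3 averages per strain, from these cultures as sampled.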
